A study of Sorghum bicolor with 12 samples.

Results

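Long terminal repeat (LTR) retrotransposons are mobile elements that copy themselves through RNA. An element is transcribed, its gag and pol genes supply a particle protein, reverse transcriptase and integrase, and the new DNA copy inserts elsewhere in the genome. They fill much of the sorghum genome, most copies are kept silent by DNA methylation and small RNAs, and an insertion can carry, interrupt or lie around ordinary genes. The 1274 loci described here are the annotated loci that the study listed as LTR-related and that had a probe, out of 34286 annotated loci with a probe. The study found full-length elements in the sorghum genome sequence with a search program and listed the annotated genes wholly or partly inside one. The list named 1301 loci when each was counted once, and 27 of them had no probe. Another 33012 annotated loci lay outside the list, and 522 of these were on the study's list of genes related to CACTA elements, a family of DNA transposons that move by cutting and pasting.

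The arrays compared Keller, a sweet sorghum cultivar, with BTx623, a grain cultivar, each sampled at 0 h, 2 h and 6 h after the seedlings were put in 5% sucrose. RNA came from whole seedlings 14 days old, and 12 one-colour arrays were read. The study describes the 2 repeats of each of the 6 groups as biological replicates. It gives separate planting dates for its repeats but ties none of them to an array. The later times had no sucrose-free seedlings beside them, so time in sucrose and time of day cannot be told apart. Probes were designed from BTx623 gene models, so a weaker transcript in Keller and a Keller sequence that pairs less well with its probe cannot be told apart. Near-identical copies of an element can also share a probe, and in whole seedlings fewer cells that use a gene and less RNA per cell cannot be told apart. As a check of the tissue label, 4 leaf enzymes of the C4 pathway (PEP carboxylase, NADP-malic enzyme, pyruvate orthophosphate dikinase and NADP-malate dehydrogenase) were detected on all 12 arrays and lay at or above the 97.9th percentile of all probes on each.

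Few of the loci were annotated as parts of mobile elements. Only 51 encoded retroelement proteins and 32 encoded DNA transposon proteins, while 786 were predicted or uncharacterised proteins and 300 carried other names. Smaller groups were 25 transporters, 23 proteins of chromatin and silencing, 17 transcription factors, 16 kinases, 13 proteins of translation and 11 of disease resistance. The loci were 123 to 89247 bases long, with a median of 2476 bases, and 307 of them spanned more than 10000 bases. Chromosome 8 held 193 of them, 9.21% of its annotated loci with a probe, while the other chromosomes had between 2.58% (chromosome 4) and 5.02% (chromosome 5).

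LTR-related loci were detected less often than the rest. A locus counted as detected on an array where at least 50% of its spots carried the scanner software's flag for a signal well above background. Over the 12 arrays 60.6% to 80.3% of the LTR-related loci were detected, against 70.8% to 85.2% of the other annotated loci, and the share was lower on every array, by 4.90 to 10.2 percentage points. All 12 arrays detected 709 LTR-related loci (55.7%), against 65.7% of other loci, and none detected 203 (15.9%), against 11%. In the CACTA-related loci 51.7% were detected on all arrays and 20.3% on none. The array Keller 0 h replicate 2 stood apart, with the highest share in each set of loci, and it was also where the gap between LTR-related and other loci was smallest.

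**Figure D1:**
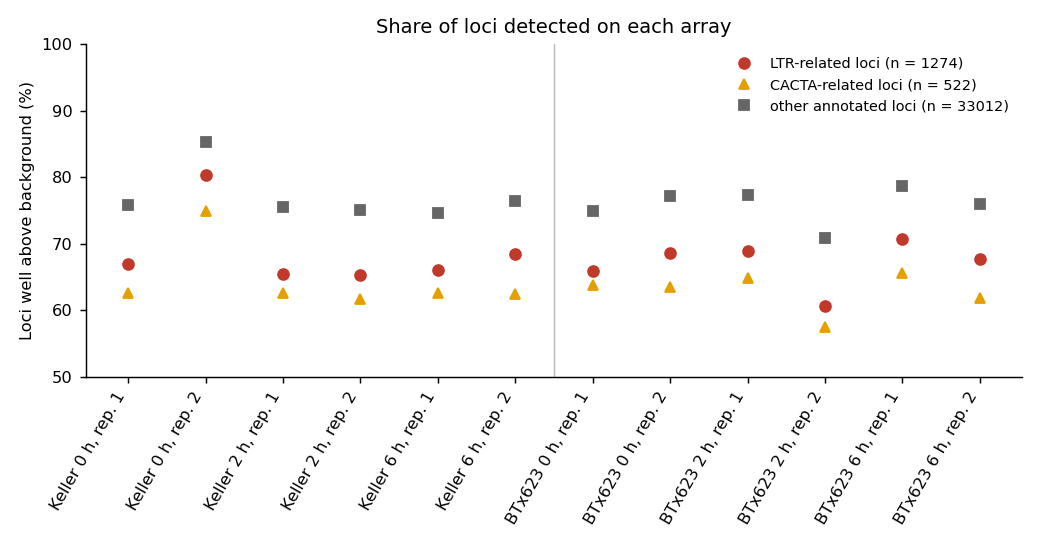
Percent of loci well above background on each of the 12 arrays, for LTR-related loci, CACTA-related loci (which are part of the other annotated loci) and all other annotated loci, with Keller arrays on the left and BTx623 arrays on the right. The LTR-related share lies below that of the other loci on every array, and Keller 0 h replicate 2 is highest in all 3 sets.

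With a locus counted for a cultivar where both arrays of at least 1 of its 3 groups detected it, 879 LTR-related loci (69%) were detected in Keller and 852 (66.9%) in BTx623, and 77.4% and 76.1% of the other loci. Without Keller 0 h, the group with the outlying array, the Keller count was 828 (65%), though leaving out a group could not raise it. The share per array averaged 68.7% ± 5.79 in Keller and 67.1% ± 3.52 in BTx623 (SD, n = 6 arrays each), a difference of 1.66 percentage points that lay within the spread between arrays. Permuting the cultivars within each time gave an exact two-sided p of 0.630 for this share and 0.722 for the gap to the other loci (both 0.722 after Benjamini-Hochberg adjustment over the 2 tests, with 0.00926 as the smallest p that the 216 arrangements allow).

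The signal was also dimmer. Signals are given as a percent of the array's 75th percentile over all probes of the design. The median LTR-related locus lay between 9.12% and 10.8% of it across the arrays, against 20.5% to 23.0% for the other loci. Among loci detected on all 12 arrays the medians were closer, 51.2% in LTR-related loci and 61.0% in the others. These medians describe lists of different probes, whose levels are not otherwise comparable.

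Detection was lowest among the element proteins and the short loci. Of the 51 retroelement proteins 17 were detected on all 12 arrays and 20 on none, and of the 32 DNA transposon proteins 4 were detected on all and 12 on none. Among the transporters 20 of 25 were detected on all arrays and 0 on none, among the transcription factors 14 of 17 and 0, and among the other named proteins 225 of 300 and 28. Loci under 2000 bases were detected on all arrays in 232 of 556 cases (41.7%), those of 2000 to 10000 bases in 250 of 411 (60.8%), and those over 10000 bases in 227 of 307 (73.9%). The same order held within the unnamed proteins alone, with 38.0%, 53.0% and 67.1%.

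**Figure D2:**
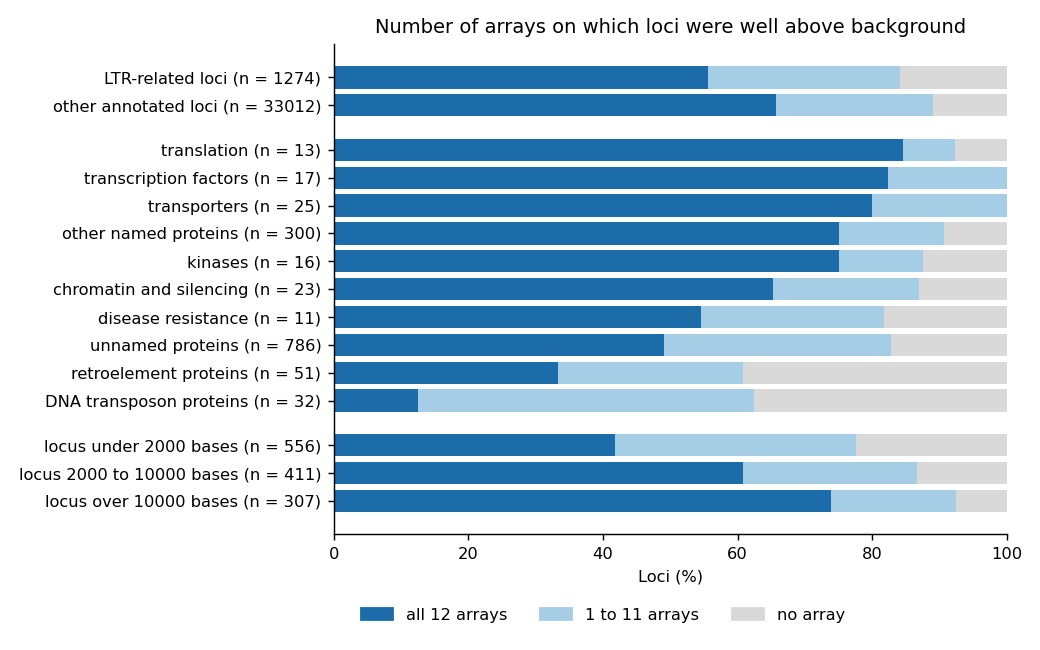
Percent of loci well above background on all 12 arrays (dark), on 1 to 11 (pale) and on none (grey), for all LTR-related loci and other annotated loci, for LTR-related loci by annotation group, and for LTR-related loci by length. DNA transposon proteins (12.5% on all arrays) and retroelement proteins (33.3%) are the lowest groups, and the share rises with the length of the locus.

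Within the retroelement proteins, detection followed the kind of protein in the annotation, a split made after the values were seen. Of 17 loci annotated as copia polyproteins, the single gag-pol product of the copia superfamily, 14 were detected on no array and 0 on all 12. These copia loci were all short, from 684 to 1087 bases, and several were exactly 1083 bases long, so they may not be separate observations. The 14 loci annotated as gag, pol, prpol or RIRE proteins were each detected on at least 1 array, 9 of them on all 12. All 3 loci annotated simply as reverse transcriptases were detected on every array, and 2 of the 3 annotated as non-LTR reverse transcriptases on none. Sb02g015760, similar to a RIRE gag/pol protein, lay between 37.7% and 120% of the 75th percentile over the 12 arrays. The copia polyprotein Sb03g030320 lay between 4.42% and 130% in Keller, the highest value on the array Keller 6 h replicate 2 and 9.80% or less on the other 5, and between 1.97% and 4.29% in BTx623. It was not called (log2 difference 1.92, limma adjusted p = 0.113).

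For the comparisons, the probes tested were those that both replicates of some group detected, 912 of the LTR-related loci (71.6%) and 79.6% of the other annotated loci. A call needed a 2-fold difference and, in limma's moderated test, a p under 0.05 after Benjamini-Hochberg adjustment over all tested probes. The first question was whether the cultivars differed, with 6 Keller arrays against 6 BTx623 arrays over the 3 times. In Keller 17 LTR-related loci were higher (1.86%) and 34 lower (3.73%), against backgrounds of 1.98% higher and 3.02% lower over all probes tested. Other annotated loci of like signal had 2.36% higher and 3.17% lower, so the LTR-related shares lay near both backgrounds. With a replicate block in the fit 26 were higher and 37 lower (2.85% and 4.06%, against 2.80% and 3.65% of all probes in the same fit). The median log2 difference was 0.08, against 0.06 over all probes tested. Of the 51 called loci 38 were unnamed proteins, which made up 58.4% of the loci tested, and 9 were other named proteins. Loci under 2000 bases gave 27 of the calls and made up 37.4% of the loci tested.

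Among the loci lower in Keller, several were below background there. Sb04g017407 (chromosome 4, 40307648 to 40308088, minus strand), weakly similar to a protein with the dimerisation domain of hAT transposases, was not well above background on any Keller array, where its lowest, median and highest signals were 0.379%, 0.553% and 1.02%, and was detected on all 6 BTx623 arrays at 15%, 23.7% and 31.2%. It was at least 11.9-fold lower in Keller (limma adjusted p = 5.8e-06). This locus and the others below background in 1 cultivar were tested only because the other cultivar detected them, so their p-values are a description. Coordinates are those of the study's gene list, which names no genome build. Its neighbour Sb04g017410, a predicted protein at 40308245 to 40309321 on the same strand, was also lower in Keller (log2 difference -2.87 ± 0.31 SE, limma adjusted p = 0.00041), with 0.478% to 3.11% in Keller and 4.00% to 17.9% in BTx623. Only 1 Keller array, Keller 0 h replicate 2, detected Sb04g017410, so the difference is a fitted value and not a measured size.

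In 5 LTR-related loci all 6 BTx623 arrays gave a signal well above background and no Keller array did, and in 1 locus the reverse was seen, against backgrounds of 0.327% and 0.207% of all annotated loci (0.392% and 0.0785% of the LTR-related ones). Besides Sb04g017407 the BTx623 ones were Sb03g019673, similar to a transposase, and the uncharacterised Sb05g004320, Sb05g004330 and Sb08g015240. The transposase-like Sb03g019673 had 0.438% to 0.941% in Keller against 4.07% to 6.53% in BTx623, at least 2.64-fold lower in Keller (limma adjusted p = 5.7e-05). The 2 transposon proteins were thus the called ones among the 12 DNA transposon proteins tested, and no other member of that group was called in any comparison. In the opposite direction Sb02g002270, similar to a 23 kDa jasmonate-induced protein, had 2.98%, 13% and 16.2% (lowest, median and highest) in Keller and 0.323%, 0.686% and 1.55% in BTx623, and was at least 5.17-fold higher in Keller (limma adjusted p = 0.00014). Its 6 h arrays in Keller were the lowest of that cultivar, at 2.98% and 6.07%.

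The largest increase in Keller was in Sb09g013990 (chromosome 9, 35065246 to 35130062, plus strand), an uncharacterised protein whose gene model spans 64817 bases. Its lowest, median and highest signals were 144%, 184% and 237% in Keller and 1.67%, 4.27% and 9.65% in BTx623 (log2 difference 5.42 ± 0.32 SE, limma adjusted p = 9.6e-06). Sb10g004960, also uncharacterised, had 64.1% to 496% in Keller and 10.3% to 36.0% in BTx623 (log2 difference 3.12 ± 0.33 SE, limma adjusted p = 0.00036). Sb03g025865, similar to a serine carboxypeptidase, a family of peptide-cleaving enzymes, had 9.30% to 22.2% in Keller against 2.27% to 5.63% in BTx623 (log2 difference 1.97 ± 0.23 SE, limma adjusted p = 0.00070). The rule that named these loci required that the arrays of the cultivars did not overlap.

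The retroelement proteins gave 1 call of 23 tested (4.35%, against 5% of all probes in either direction). Sb05g016005, annotated as a polyprotein within a gene model of 13972 bases, had 39.4%, 50.9% and 74.6% (lowest, median and highest) in Keller and 15.1%, 24.5% and 33.6% in BTx623 (log2 difference 1.03 ± 0.16 SE, limma adjusted p = 0.0046), with no overlap between the cultivars. Its call ended when the arrays were not scaled (adjusted p = 0.415), with normexp (log2 difference 0.79) and without BTx623 2 h replicate 1 or Keller 0 h replicate 2, where it fell under 2-fold. Across the 23 the log2 differences ran from -0.77 to 1.92 with a median of 0.30, against 0.06 over all probes, but at 0 h alone their median was -0.08, against 0.05 over all probes. Of the 18 chromatin and silencing proteins tested 0 were called by limma. The lowest p among them was that of Sb08g001680, weakly similar to a high mobility group I/Y protein, with 1.47% to 4.57% in Keller and 0.690% to 2.03% in BTx623, where no array was well above background (at least 1.45-fold higher in Keller, limma adjusted p = 0.14, unadjusted p = 0.016). The cytosine-specific methyltransferase Sb09g007390, of the enzymes that methylate DNA, had a log2 difference of 0.03 (limma adjusted p = 0.97).

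**Figure D3:**
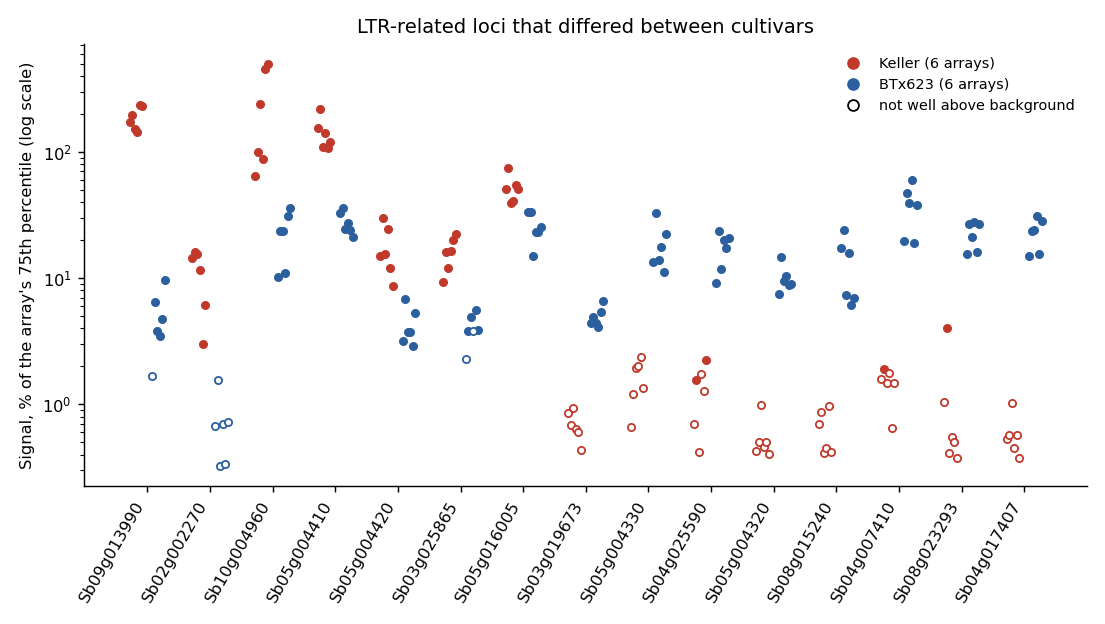
Signal on each of the 6 Keller arrays (left of each pair) and 6 BTx623 arrays (right) for the LTR-related loci named in the cultivar comparison, as percent of the array's 75th percentile on a log scale, with open points not well above background. The 7 loci on the left are higher in Keller and the 8 on the right lower. The cultivars do not overlap in any of them, which the rule for naming the largest changes required.

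Several called loci were neighbours. Of the 51 called LTR-related loci 13 (25.5%) lay beside an annotated locus called in the same direction, and of the 1290 called loci outside the list 229 (17.8%) did, a difference that was not tested. On chromosome 8 the list holds an unbroken run of annotated loci from Sb08g014950 to Sb08g015240 (39330831 to 40013375), and in it Sb08g015230, Sb08g015237 and Sb08g015240 were all lower in Keller, by at least 3.36-fold, 1.84-fold and 6.08-fold. Sb08g015240 had 0.408%, 0.574% and 0.975% in Keller and 6.09%, 11.6% and 24.2% in BTx623 (limma adjusted p = 2.7e-05). In the same run Sb08g014962 was lower on all 6 Keller arrays (3.68% to 5.78% against 33.2% to 64.3%, log2 difference -3.44 ± 0.16 SE, limma adjusted p = 2.7e-06), while Sb08g014950, similar to a ubiquitin hydrolase, and the ribosomal protein Sb08g015010 had log2 differences of -0.05 and 0.23 and were not called. On chromosome 5 the uncharacterised Sb05g004320, Sb05g004330 and Sb05g004345 were lower in Keller, the first and second by at least 5.27-fold and 9.32-fold and Sb05g004345 with a log2 difference of -2.34, whereas Sb05g004410 and Sb05g004420 were higher (log2 differences 2.34 and 1.98). Loci outside the list in the same stretch were called too, with Sb05g004290, Sb05g004300, Sb05g004360, Sb05g004370 and Sb05g004380 lower in Keller and Sb05g004430 higher. Among these loci Sb05g004335, similar to hydroperoxide lyase, an enzyme that cleaves oxidised fatty acids, had a log2 difference of 0.14 (limma adjusted p = 0.93). These runs were chosen after the values were seen.

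**Figure D4:**
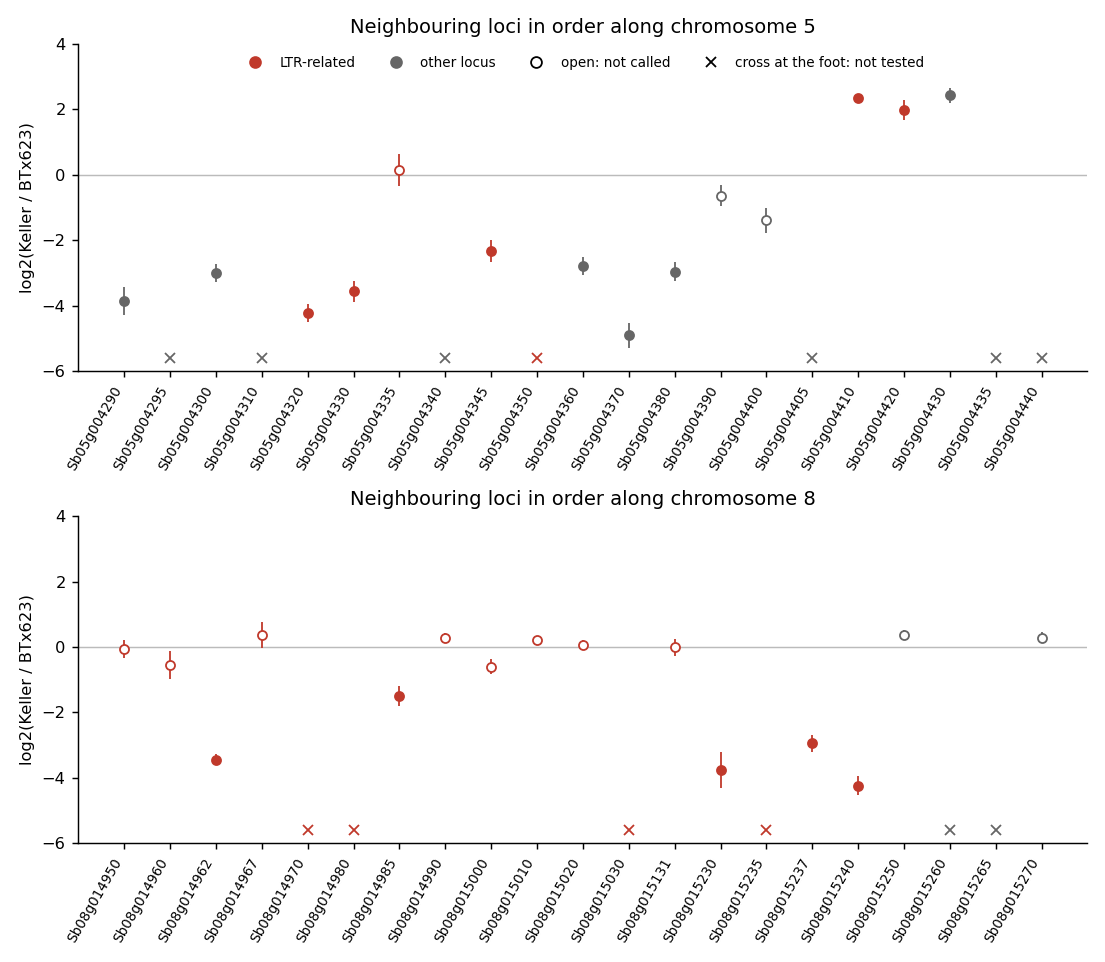
Log2 difference, Keller over BTx623, with its standard error for annotated loci in their order along stretches of chromosomes 5 and 8, LTR-related loci in red and others in grey. Filled points were called, open points were not, and crosses at the foot were not tested. For loci below background in Keller the point is a fitted value and not a measured size; called loci of both directions stand in the chromosome 5 stretch, and all called loci in the chromosome 8 stretch are lower in Keller.

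Named genes inside or around elements differed too. Sb09g020360, similar to a beta-tubulin, a subunit of microtubules, had 25.3%, 63.0% and 83.1% in Keller and 359%, 434% and 606% in BTx623 (log2 difference -3.04 ± 0.27 SE, limma adjusted p = 0.00012). Sb05g025000, similar to the wheat stripe rust resistance protein Yr10, was not well above background on any Keller array and was on all 4 BTx623 arrays at 0 h and 2 h, but on neither at 6 h (at least 1.97-fold lower in Keller over the times, limma adjusted p = 0.0093). The neighbouring F-box proteins Sb05g023100 and Sb05g023105, of a family that marks proteins for degradation, were both higher in Keller (log2 differences 1.55 and 1.58). These 4 fell outside the rule for named loci and were chosen after their values were seen. A normexp background correction, which adds an offset to every signal, ended the calls of 7 of the 15 loci in the plot of cultivar differences (Sb03g025865, Sb05g016005, Sb03g019673, Sb04g025590, Sb05g004320, Sb05g004330 and Sb08g015240), and with it 19 LTR-related loci in all were called, 9 higher and 10 lower in Keller. The share of all probes called in that fit was not counted, so the drop is not shown to be particular to LTR-related loci.

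At 0 h alone, with 2 arrays a side, 5 LTR-related loci were higher and 18 lower in Keller (0.548% and 1.97%, against backgrounds of 0.723% higher, 1.46% lower and 2.18% in either direction). A replicate block in the fit gave 37 calls, 12 higher and 25 lower (1.32% and 2.74%, against 1.14% and 2.08% of all probes in the same fit). Sb09g013990 led the increases (172% and 197% in Keller, 1.67% and 6.42% in BTx623) and Sb04g017407 the decreases (0.535% and 0.571% in Keller, 15% and 23.4% in BTx623). Leaving out BTx623 0 h replicate 1, BTx623 0 h replicate 2 or Keller 0 h replicate 1 left 13, 12 and 11 calls. A limma fit to the 4 arrays alone gave 0 calls, with 49 loci at an unadjusted p under 0.05 and a 2-fold change.

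The second question was what changed in sucrose. After 6 h, with 4 arrays a side over both cultivars, 17 LTR-related loci rose (1.86%) and 41 fell (4.5%), against backgrounds of 3.67% and 5.45% over all probes. Other annotated loci of like signal had 3.70% and 5.35%, so the LTR-related share was the smaller in each direction. For both directions together it differed from that of loci of like signal by -2.69 percentage points, and by -4.42 to -1.1 under the 21 alternatives run. No test was made of this difference between lists. The median log2 change was 0.02, the same as over all probes. With the replicate block 37 rose and 53 fell (4.06% and 5.81%, against 5.26% and 7.77% of all probes in the same fit), including all 58. Leaving out BTx623 6 h replicate 1, Keller 0 h replicate 1 or Keller 6 h replicate 1 left 36, 36 and 34 calls.

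None of the 23 retroelement proteins and 12 DNA transposon proteins tested was called at 2 h or 6 h by limma (backgrounds 2.44% and 9.12% of all probes in either direction). The 6 h changes of the retroelement proteins ran from -0.82 to 0.94 on the log2 scale with a median of -0.10. The median was 0.23 in Keller and -0.32 in BTx623, against 0.03 and 0.02 over all probes, with 0 calls in the test of that difference for any of the 23. Changes of the DNA transposon proteins ran from -0.47 to 0.91 with a median of 0.00. The calls came from ordinary genes and unnamed proteins. Of the 22 transporters tested 5 fell (22.7%, against 5.45% of all probes) and 0 rose, with a median log2 change of -0.12 over the group. This group was singled out after its values were seen among the 10 annotation groups.

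Sb10g009160 (chromosome 10, 9782552 to 9785113, minus strand), similar to a calcium-binding protein, fell most. Its signals at 6 h were 15% and 69.7% in Keller and 42.0% and 119% in BTx623, against 2537% and 1531% in Keller and 3036% and 2960.4% in BTx623 at 0 h (log2 change -5.67 ± 0.54 SE, limma adjusted p = 0.00082). At 2 h it stood between these, at 257% and 477% in Keller and 349% and 808% in BTx623. It was the LTR-related locus for which the study listed primers for quantitative RT-PCR, shown here as its only designed sequences in the files used, each 20 bases long and printed 5′ to 3′.
Forward primer: tggcaacatgactgctcttc
Reverse primer: accaacagggcttgtttttg

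Sb08g004980, similar to an amino acid transporter, had 106% and 94.7% in Keller and 115% and 133% in BTx623 at 6 h, against 1509% and 1066% in Keller and 990.2% and 1388% in BTx623 at 0 h (log2 change -3.45 ± 0.30 SE, limma adjusted p = 0.00055). The other 4 transporters that fell were Sb01g012430, similar to an iron-regulated metal transporter, the cation-transporting ATPase Sb10g028080, the transporter Sb08g001400 and the sialin-like Sb03g025190, with log2 changes of -1.60, -1.30, -1.14 and -1.01. The signal of Sb10g028080 lay near background. It was not detected on BTx623 0 h replicate 1, Keller 6 h replicate 1 or BTx623 6 h replicate 2, so its change is a fitted value. The uncharacterised Sb04g027360 fell in both cultivars by 2 h and stayed low (log2 changes -2.65 ± 0.20 SE at 2 h and -3.14 ± 0.20 SE at 6 h, limma adjusted p = 0.00089 and 0.00018). Its 8 arrays at 2 h and 6 h lay between 83.8% and 167%, and the 4 at 0 h between 750.3% and 1078%. Sb07g001500, uncharacterised, and Sb09g025560, similar to the O-methyltransferase ZRP4 first described in maize roots, fell by 3.38 and 2.87 on the log2 scale. The call of Sb09g025560 (limma adjusted p = 0.025) ended without Keller 0 h replicate 1 or any of the 4 arrays at 6 h.

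On chromosome 2 the neighbours Sb02g001310, Sb02g001320 and Sb02g001330, short unnamed loci between 1140318 and 1151043, all fell by 6 h (log2 changes -1.83 and -2.61 in the first and the last). Sb02g001310 was well above background at 6 h only on Keller 6 h replicate 2, and not on BTx623 0 h replicate 1, so its change is a fitted value. Sb02g001320 was not well above background on any 6 h array, with 0.499% and 0.900% in Keller and 1.19% and 0.954% in BTx623, against 10.1% and 13.9% in Keller and 4.95% and 23.7% in BTx623 at 0 h, at least 6.32-fold lower (limma adjusted p = 0.0024). The adjacent Sb02g001340, outside the list, rose (log2 change 2.34).

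Among the loci that rose, Sb02g031940, similar to a flavin-containing monooxygenase, had the largest change. Its signals at 6 h were 249% and 100.4% in Keller and 199.8% and 44.7% in BTx623, against 2.87% and 2.44% in Keller and 2.04% and 2.82% in BTx623 at 0 h (log2 change 5.60 ± 1.53 SE, limma adjusted p = 0.044). At 2 h its replicates parted in both cultivars, with 51.7% and 52.8% in replicate 1 of Keller and BTx623 and 0.936% and 0.569% in replicate 2, and its 6 h call ended when any of 8 arrays was left out. Sb05g025210, a predicted protein, had 849.7% and 825% in Keller and 579.6% and 671% in BTx623 at 6 h, against 142% and 111% in Keller and 160% and 70.9% in BTx623 at 0 h (log2 change 2.65 ± 0.27 SE, limma adjusted p = 0.0011). Sb08g000770, similar to the rice blight resistance protein XA26, a receptor-like kinase, was already high at 2 h (log2 change 2.79 ± 0.41 SE, limma adjusted p = 0.013, a call that ended without BTx623 2 h replicate 1 or Keller 2 h replicate 1) and stood at 190% and 92.4% in Keller and 166% and 66.3% in BTx623 at 6 h, against 33.1% and 20.9% in Keller and 24.0% and 19.9% in BTx623 at 0 h (log2 change 2.30 ± 0.41 SE, limma adjusted p = 0.0093). Sb02g034490, similar to cathepsin B, a protein-degrading enzyme, rose by 1.88 ± 0.31 SE (limma adjusted p = 0.0061).

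**Figure D5:**
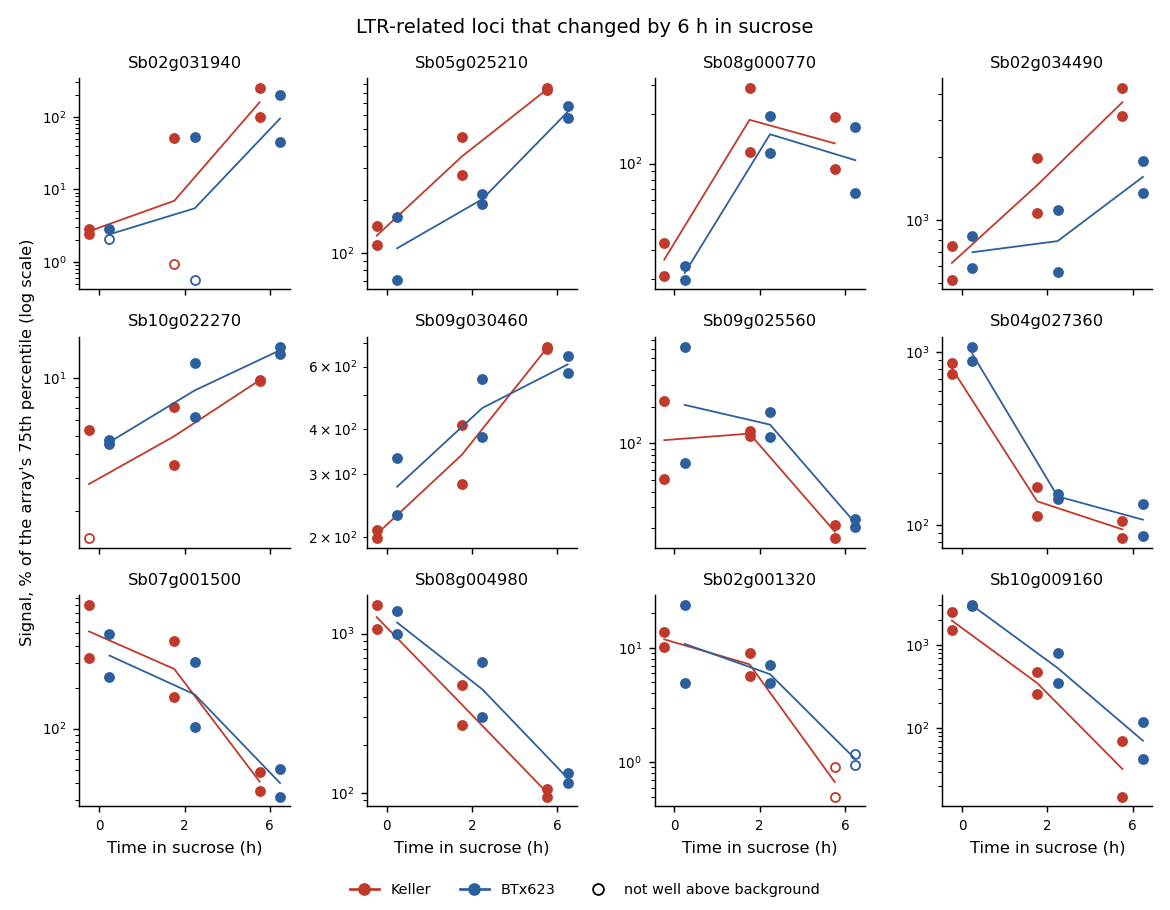
Signal at 0 h, 2 h and 6 h in sucrose, as percent of the array's 75th percentile on a log scale, for the 6 LTR-related loci with the largest rise and the 6 with the largest fall by 6 h over both cultivars, among calls whose 6 h and 0 h arrays did not overlap. Points are arrays (open where not well above background), lines join the geometric means of the 2 replicates, and times are evenly spaced; Sb02g031940 shows the split of the replicates at 2 h.

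Of the chromatin and silencing proteins, 1 of 18 tested fell (5.56%, against 5.45% of all probes) and 0 rose at 6 h (against 3.67%). The share that fell was thus that of all probes. Sb02g004970, a histone H2A, one of the core proteins around which DNA is wound, had 3723% and 3012% in Keller and 2608% and 2056% in BTx623 at 6 h, against 12467% and 5572% in Keller and 5597% and 8000.2% in BTx623 at 0 h (log2 change -1.42 ± 0.37 SE, limma adjusted p = 0.038). The call ended when any of 9 arrays was left out, with adjusted p up to 0.11, and the exceptions were Keller 0 h replicate 2, Keller 2 h replicate 1 and Keller 2 h replicate 2. The histone H2B Sb04g030340 had a log2 change of -0.90 ± 0.26 SE (limma adjusted p = 0.055, and 0.030 with the replicate block), and the histone deacetylase Sb07g018230, of the enzymes that remove acetyl groups from histones, 0.72 ± 0.21 SE (limma adjusted p = 0.054, and 0.030 with the replicate block). Sb03g014460, similar to HASTY, known in Arabidopsis as an exporter of small RNAs from the nucleus, had 294% and 253% in Keller and 307% and 253% in BTx623 at 6 h against 194% and 161% in Keller and 126% and 167% in BTx623 at 0 h, a log2 change of 0.78 ± 0.17 SE that passed the p threshold (limma adjusted p = 0.020) but not 2-fold.

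At 2 h 4 LTR-related loci rose and 11 fell (0.439% and 1.21%, against backgrounds of 0.97% higher, 1.46% lower and 2.44% in either direction), and with the replicate block 14 rose and 20 fell (1.54% and 2.19%, against 2.32% and 3.32% of all probes in the same fit). This comparison shares its 0 h arrays with the 6 h comparison. Leaving out 1 array gave 3 to 15 calls, with 3 when BTx623 2 h replicate 1 or Keller 2 h replicate 1 was left out, and leaving out BTx623 0 h replicate 2, BTx623 2 h replicate 2, Keller 0 h replicate 1, Keller 0 h replicate 2 or Keller 2 h replicate 2 gave 8, 6, 6, 8 and 8. Sb08g006870, uncharacterised, rose at 2 h, with 40.6% and 64.4% in Keller and 39.8% and 40.0% in BTx623 against 14.5% and 14.3% in Keller and 11.2% and 13.4% in BTx623 at 0 h (log2 change 1.76 ± 0.22 SE, limma adjusted p = 0.0069). Sb05g019110, a predicted protein on chromosome 5, was not well above background on any 2 h array and was at least 1.68-fold lower (limma adjusted p = 0.046), a call that ended when any of the 12 arrays was left out.

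Within each cultivar the 6 h comparison had 2 arrays a side. In Keller 3 LTR-related loci rose and 15 fell (backgrounds 0.664% and 1.54%, and 2.21% in either direction), and in BTx623 1 rose and 18 fell (backgrounds 0.989% and 1.98%, and 2.97% in either direction). With the replicate block there were 14 rises and 36 falls in Keller (1.54% and 3.95%, against 3.04% and 4.63% of all probes in the same fit), and 16 and 40 in BTx623 (1.75% and 4.39%, against 3.70% and 5.55%). Both lists held 13 loci, 72.2% of the Keller list and 68.4% of the BTx623 list. The same overlap was not counted over all probes, and both lists came from the same fit with a shared spread. It is therefore not shown to be particular to LTR-related loci. Of the 13 loci Sb05g025210 rose and 12 fell, among them Sb10g009160, Sb02g001320, Sb08g004980, Sb07g001500, Sb04g027360 and Sb04g022280. These counts rested on single arrays. The Keller count was 1 and 6 without Keller 0 h replicate 1 or 2, 1 and 3 without Keller 6 h replicate 1 or 2, and 12 to 16 without any other array. The BTx623 count was 8 and 10 without BTx623 0 h replicate 1 or 2, 1 and 2 without BTx623 6 h replicate 1 or 2, and 11 to 13 without any other array. The difference of the 6 h changes between the cultivars gave 0 calls by limma, among LTR-related loci and among all probes. An unadjusted p under 0.05 was reached by 10 of 912 LTR-related loci and by 318 of 31946 probes tested, which are similar shares. Of the 10 loci 9 also had a 2-fold difference (7 higher and 2 lower), against 160 higher and 133 lower of all probes.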

How the data were processed

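RNA of 14-day-old whole seedlings was hybridised to 12 one-colour (Cy3) custom Agilent arrays of 60-base probes. The deposited files hold scanner intensities and flags per spot, which the authors extracted with Feature Extraction; background was already subtracted in the processed signal. The study's element search defined the list of LTR-related genes. Members and gene lists were chosen with earlier results of these data known.

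Processed signals were averaged over a probe's spots, leaving out outlier spots, and scaled by subtracting each array's 75th percentile over 41977 probes on the log2 scale. The 31947 probes that both replicates of some group detected were fitted with limma 3.58.1 (R 4.3.3) as group means over the 12 arrays with an intensity trend. Other loci of like signal were those in the same bins of mean signal. Where a side was below background, a bound ("at least") was computed as the mean of the bright side over, per array, the higher of the dim signal and the lowest signal well above background. Named loci were, in each comparison, up to 6 calls in each direction with the largest changes and no overlap between the sides, the called element proteins, loci detected in 1 cultivar only (up to 8 for each) and the 4 chromatin proteins of lowest p for the cultivars and for 6 h. The labels name the replicates only as repeats. Slide 1 held only replicate 1 arrays, slide 3 only replicate 2 arrays, and slide 2 held both. The p-values thus measure a spread between repeats in which planting and slide cannot be told apart, and 2 arrays a group limit precision. The cultivars were not balanced over the slides either. Slide 1 held every replicate 1 array of Keller, and slide 3 every replicate 2 array of BTx623. Slide differences can therefore enter the cultivar comparison where no slide block was fitted.

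Same-numbered replicates deviated together in all 15 pairs of groups (correlation 0.278 to 0.661), and replicate-blocked counts stand beside the counts of calls that they move. In simulated data with 100 probes changed 8-fold and 100 changed 4-fold, the cultivar comparison recovered 89 and 68 with 1 false call, and the 6 h comparison 83 and 68 with 6. The simulated noise was independent between arrays and left out the shared deviations of same-numbered replicates. These counts therefore do not give the error rate of the fits to the real arrays. Alternatives were normexp (on the median signal, as the mean signal was not in the columns used), quantile or no scaling, other filters and thresholds, replicate and slide blocks, fits to the arrays compared and each array left out. Forward and reverse primers come from the study's primer list. Genome and probe sequences were not used here.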

Additional observations from a re-analysis of the deposited data

Results flagged for a closer look

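The array Keller 0 h replicate 2 detected 80.3% of the LTR-related loci and stood apart from the other 5 Keller arrays, which lay between 65.2% and 68.4%. Of the 2 sets of 6 arrays looked at this was the single one with an outlying array, and chance sets apart about 1 in 20 such sets. The same array detected 85.2% of the other annotated loci, its highest share too. Without it 884 LTR-related loci were detected in Keller, against 879 with it, but the Keller 0 h group then needed 1 array instead of 2, so the counts follow different rules.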

How the results depend on the processing

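No named locus changed sign under any alternative run, and the difference of the 6 h changes gave 0 calls in each. The cultivar comparison (51 LTR-related calls) gave 19 with normexp and 23 with probes detected on all 12 arrays, and 43 to 52 with 1 array left out. The 0 h comparison (23) gave 11 at adjusted p under 0.01, 11 unscaled, 3 with normexp, 0 from the arrays compared alone, 37 with the replicate block, 4 with probes detected on all arrays and 11 to 19 with 1 array left out. The 2 h comparison (15) gave 3, 4 and 9 at adjusted p under 0.01, unscaled and with normexp, 8 from the arrays compared alone, 34 with the replicate block, 32 with the slide block and 3 to 15 with 1 array left out. The 6 h comparison (58) gave 24, 19 and 35 at adjusted p under 0.01, unscaled and with normexp, 90 with the replicate block and 34 to 56 with 1 array left out. Within Keller (18) the counts were 2 at adjusted p under 0.01, 7 unscaled, 0 from the arrays compared alone, 50 with the replicate block, 42 with the slide block and 1 to 16 with 1 array left out, and within BTx623 (19) they were 3, 4, 0, 56, 41 and 1 to 13. Fits to the arrays compared alone that gave 0 calls had 49 (0 h), 77 (Keller) and 68 (BTx623) loci at an unadjusted p under 0.05 with a 2-fold change. Apart from the replicate block, the share of all probes called was not counted under these alternatives. The counts alone therefore do not set LTR-related loci apart from other probes. The 6 h share differed from loci of like signal by -4.42 points with the slide block. With the less strict flag for a signal above background, 0 LTR-related loci were Keller-only and 2 BTx623-only, Sb02g029990 and Sb08g015230 (0% and 0.157%, against 0.0583% and 0.0904% of all annotated loci). For both directions together the cultivar share differed from loci of like signal by 0.07 points, and by -0.80 to 0.83 over 21 alternatives, below 0 in 6. Detected loci numbered 884 to 1033 in Keller and 915 to 949 in BTx623 with replicates left out, where 1 array was enough for a group. The order of the cultivars (879 in Keller, 852 in BTx623) turned without replicate 2 (914 and 949) and without the Keller 0 h group (828 and 852). Leaving out that group could not raise the Keller count, while BTx623 kept its 3 groups, so the second reversal compares unlike rules. Without scaling, the median log2 difference of all probes was -0.12 (cultivars), 0.20 (2 h) and 0.13 (6 h). In the main fit it was 0.06, -0.02 and 0.02. The fits without Keller 0 h replicate 2 or the whole Keller 0 h group were chosen after seeing the data. Causes were not tested. Signal over background limits the dim loci, for which only bounds can be given.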
